A study of Drosophila melanogaster with 93 samples.

Results

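In *fru P1* neurons, 133 of 10897 bins of 10 kb on the chromosome arms 2L, 2R, 3L and 3R (dm6) had less H3K9me3 peak coverage in 1-day adults than at the stage before and the stage after, in both sexes. These member bins were chosen from the measured values. In each bin, the percent of bases under the authors' peaks was averaged over the libraries of a condition, and a member had a mean in 1-day adults at least 10 percentage points below the means at 48hr APF and in 10–12 day adults, in males and in females. The rule was met by 1.22% of all bins, while 1963 bins (18.0%) met the reverse, with the highest coverage at 1 day. This split depended on the scale of the libraries. With each library scaled to the mean coverage of all *fru P1* libraries, 390 bins, all 133 members included, met the rule and 450 met the reverse, so that the share of lower bins among both rose from 6.35% to 46.4%. The members overlap *Kr-h1*, *mir-317*, *brp*, *wdb*, *plum*, *scrib* and *chinmo*, among other genes. In *elav* neurons of 1-day adults, which the rule did not use, they had mean coverages of 8.41% in males and 6.90% in females, against 26.2% and 24.1% over all bins.

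*fru P1* marks the neurons that express the sex-specific products of *fruitless* and that direct reproductive behavior, and *elav* marks neurons in general. All animals carried P[UAS-Chromatag] over P[w+mC, UAS-Gal4] in a w background, with *fru P1-Gal4/+* or *elav-Gal4/+* as the driver, so all groups shared the Chromatag and UAS-Gal4 elements and differed in the driver. Chromatag is a tagged, biotinylated histone H2B under UAS control. Chromatin was taken with an antibody to H3K9me3 and then with streptavidin, so a library reports chromatin of cells in which the driver was active. The *fru P1* libraries came from male and female pupae at 48hr APF (hours after puparium formation) and from adults aged 1 day or 10–12 days, and the *elav* libraries from male and female 1-day adults. Each condition had 4 libraries, except 3 of 10–12 day females, which gives 23 *fru P1* and 8 *elav* libraries. Each library pooled many sex-sorted animals. Pupae were used whole and adults as heads, so stage and tissue cannot be told apart in the comparison of 48hr APF with adults. Fewer marked cells and less of the mark per cell cannot be told apart either. Peak lists hold no expression values, so the labelled cell types were not checked against marker genes.

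H3K9me3 is the trimethylated form of lysine 9 of histone H3. It is best known for packing repeats and transposons near centromeres, where HP1 binds it, and it also occurs over genes along the chromosome arms, where it can accompany silencing. A peak here is a broad region in which the ChIP exceeded its input. The percent of a bin covered by peaks tells how much of the bin was called, not how strongly it was marked.

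The following 4 stretches of 300 bases come from member bins with large differences. They are from 4 of the 5 bins of largest drop, and no sequence is shown for the other one, at *CG46385*. Each is the exon-free stretch of its bin with the largest difference in peak coverage between the 1-day and the other *fru P1* libraries, so it was chosen from the values. All are from the RefSeq assembly of dm6, 5′ to 3′ on the plus strand. Capitals mark GAGAG or, for the other strand, CTCTC, the core of the repeats that GAGA-binding proteins recognise. At each of them, no 1-day *fru P1* library of either sex had a peak.

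*Kr-h1* intron, chr2L:6087249-6087548: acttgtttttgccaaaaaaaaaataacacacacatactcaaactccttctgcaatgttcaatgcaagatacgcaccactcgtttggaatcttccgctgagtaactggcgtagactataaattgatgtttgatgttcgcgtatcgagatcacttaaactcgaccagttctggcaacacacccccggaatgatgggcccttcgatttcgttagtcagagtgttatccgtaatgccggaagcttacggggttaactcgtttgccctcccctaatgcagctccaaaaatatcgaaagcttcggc
Upstream of *lncRNA:CR43459*, chr3R:10093439-10093738: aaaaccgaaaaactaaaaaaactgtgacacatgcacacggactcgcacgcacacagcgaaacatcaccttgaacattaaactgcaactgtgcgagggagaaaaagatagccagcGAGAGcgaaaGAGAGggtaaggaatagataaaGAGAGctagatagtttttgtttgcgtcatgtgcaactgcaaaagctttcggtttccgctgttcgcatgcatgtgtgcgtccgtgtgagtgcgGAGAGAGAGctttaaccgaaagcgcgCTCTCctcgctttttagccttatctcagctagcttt
*wdb* intron, chr3R:27572714-27573013: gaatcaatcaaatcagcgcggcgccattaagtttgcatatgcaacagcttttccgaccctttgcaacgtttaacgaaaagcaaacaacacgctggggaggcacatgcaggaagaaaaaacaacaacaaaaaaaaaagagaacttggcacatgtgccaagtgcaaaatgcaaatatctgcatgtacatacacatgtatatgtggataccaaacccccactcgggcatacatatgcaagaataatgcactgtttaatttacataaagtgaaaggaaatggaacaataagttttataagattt
*plum* intron, chr3R:26531683-26531982: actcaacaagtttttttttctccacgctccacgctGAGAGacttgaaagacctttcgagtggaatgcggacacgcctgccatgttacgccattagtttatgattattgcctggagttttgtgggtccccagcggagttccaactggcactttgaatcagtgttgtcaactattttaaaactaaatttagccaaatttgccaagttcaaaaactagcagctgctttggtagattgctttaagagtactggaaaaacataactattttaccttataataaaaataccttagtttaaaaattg

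Averaged over the 48hr APF and 10–12 day libraries, 68.1% of the bases of the *Kr-h1* stretch were covered, 46.5% of the one upstream of *lncRNA:CR43459*, 56.9% of the *wdb* stretch and 69.3% of the *plum* stretch. The second stretch lies between genes and ends 23 bp before the start of *lncRNA:CR43459*, a noncoding RNA gene whose span also holds *mir-277* and *mir-34*. It holds 7 matches, overlapping ones counted separately. The *plum* stretch holds 1 match and the *Kr-h1* and *wdb* stretches hold 0. Over the 133 member bins, 53 such stretches (39.8%) held the motif on either strand, against 30.0% of 236744 exon-free stretches of the same length on the 4 arms. The members' stretches also had a higher median GC content, 44.3% against 40.7%, and the part of GC in the motif share was not tested.

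The bin upstream of *lncRNA:CR43459* also holds *mir-317* at chr3R:10091126-10091217. Its mature miRNAs are shown because the gene lies in the bin of the second largest difference. Capitals mark the seed, bases 2 to 8, and the letters are those of the RefSeq DNA.

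mir-317-RB, chr3R:10091139-10091160: tGGGATACaccctgtgctcgct
mir-317-RA, chr3R:10091181-10091204: tGAACACAgctggtggtatccagt

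To place the members among all bins, their mean coverage was taken in every library. In males, the member bins were covered to 28.0%, 31.4%, 28.6% and 33.5% at 48hr APF, to 7.54%, 11.8%, 12.8% and 10.6% at 1 day, and to 35.2%, 29.5%, 30.0% and 22.4% at 10–12 days (replicates 1 to 4). In females, they were covered to 30.5%, 27.8%, 31.6% and 27.4% at 48hr APF, to 10.1%, 7.65%, 7.67% and 9.74% at 1 day, and to 27.7%, 35.3% and 20.7% at 10–12 days (replicates 1, 3 and 4). Every 1-day library lay below every library of the other stages. The means over the stages were 30.4% ± 2.55 (SD, n = 4), 10.7% ± 2.27 (SD, n = 4) and 29.3% ± 5.27 (SD, n = 4) in males. In females they were 29.3% ± 2.05 (SD, n = 4), 8.79% ± 1.31 (SD, n = 4) and 27.9% ± 7.32 (SD, n = 3). No test is given for these stages, since the rule used them.

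**Figure D1:**
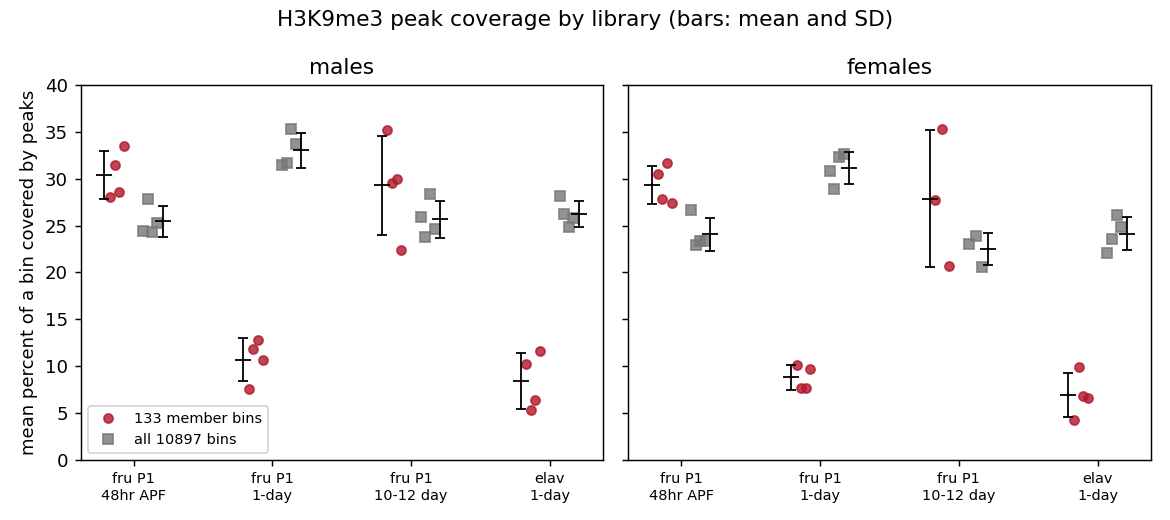
Mean percent of a bin covered by H3K9me3 peaks (vertical axis) in each library of males (left) and females (right), by cell type and stage. Red circles are the 133 member bins and grey squares all 10897 bins, and black bars give the mean and SD over libraries. Members lie between 20.7% and 35.3% at 48hr APF and 10–12 days and between 4.27% and 12.8% in 1-day adults of both cell types, while all bins are highest in 1-day *fru P1* neurons.

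All bins together went the other way. Their mean was 25.5% at 48hr APF, 33.0% at 1 day and 25.7% at 10–12 days in males, and 24.1%, 31.2% and 22.5% in females. The members were therefore above the average of all bins at 48hr APF and 10–12 days and below it at 1 day. Between 48hr APF and 10–12 days their mean moved by -1.11 points in males and by -1.46 points in females (10–12 days minus 48hr APF).

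The members differed in the size of the drop. The difference 48hr APF minus 1 day ran from 10.4 to 37.5 points in males and from 10.1 to 48.1 points in females. The difference 10–12 days minus 1 day ran from 10.0 to 38.0 points in males and from 10.0 to 46.0 points in females. At 1 day, 2 members had no peak in any male library and 4 had none in any female library, and at the other stages each member had a peak in at least 1 library of each condition. In 9 of 133 members (6.77%), all 1-day libraries of both sexes were below all libraries of the other stages of their sex, as in 11 (0.101%) of all bins. In the others, libraries of different stages overlapped in at least 1 sex.

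Inside the members, fewer and narrower peaks were called at 1 day. The rule required less coverage there, so fewer or narrower peaks follow from the choice. In males, a library held on average 357 peaks in member bins at 48hr APF, 190 at 1 day and 362 at 10–12 days, and in females 340, 159 and 345. Their median width was 997 bp, 754 bp and 994 bp in males and 1014 bp, 711 bp and 917 bp in females. Over all peaks of the arms, the width had the opposite order, with 954 bp, 1104 bp and 915 bp in males. The median fold enrichment of peaks in members was 1.473, 1.478 and 1.502 in males and 1.47, 1.45 and 1.46 in females, and over all peaks of the arms it was 1.478, 1.515 and 1.489 in males. Peaks in these medians had all passed the call, so the medians say little of the signal in the bins.

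The bins 10 kb away also had less coverage at 1 day, by a smaller amount. They were covered to 21.3% and 22.1% in 1-day males and to 19.0% and 19.5% in 1-day females. At 20 kb, the 1-day coverage was 26.6% and 27.6% in males, and in females it was 25.8% and 28.0%. At 48hr APF the bins 20 kb away had 26.7% and 26.9% in males and 26.0% and 25.4% in females. Their coverage at 1 day was thus about the same or higher. At 48hr APF the bins 10 kb away were covered to 25.9% and 23.9% in males and to 23.7% on both sides in females. Against all bins of the same condition, the bins 10 kb away stood at -11.8 and -10.9 points in 1-day males and at -12.2 and -11.6 points in 1-day females, and those 20 kb away at -6.46 and -5.46 and at -5.37 and -3.17 points. The members themselves stood at -22.3 points in males and at -22.4 points in females, which the rule favours. Of the members, 117 stood alone and 16 formed 8 runs of 2 neighbouring bins.

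**Figure D2:**
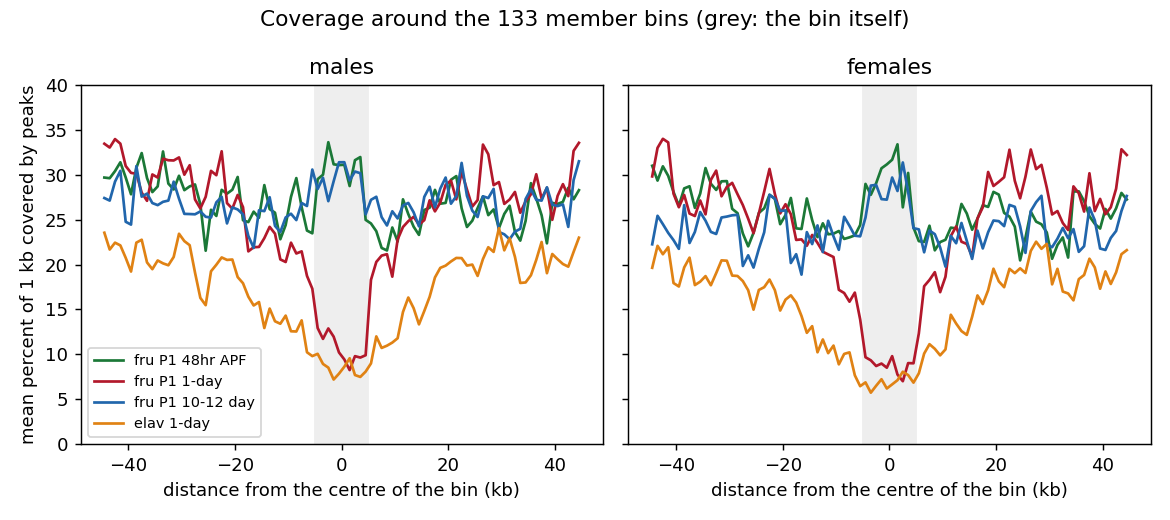
Mean percent of 1 kb covered by peaks (vertical axis) against the distance from the centre of the member bin in kb (horizontal axis), for males (left) and females (right). Green, red and blue lines are *fru P1* neurons at 48hr APF, 1 day and 10–12 days, the orange line is *elav* neurons at 1 day, and the grey band is the bin itself. Within the bin the red line falls to about 10%, and the red and orange lines rise to both sides of it.

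The largest drop was at *Kr-h1*, which encodes a zinc finger protein induced by juvenile hormone. Its bin, chr2L:6080001-6090000, is 62.6% intron and also overlaps *lncRNA:CR44773*. It was covered to 36.4%, 36.8%, 45.1% and 26.1% in males at 48hr APF, to 0%, 15.8%, 0% and 3.06% at 1 day, and to 30.9%, 33.6%, 32.8% and 43.6% at 10–12 days. In females, it was covered to 43.4%, 52.0%, 54.1% and 43.1% at 48hr APF, to 0% in all 4 libraries at 1 day, and to 41.6%, 57.6% and 14.8% at 10–12 days. Within each sex, the 1-day libraries did not overlap with the others. In *elav* neurons the bin was covered to 7.93%, 0%, 2.55% and 5.56% in males and to 0%, 0%, 3.91% and 5.40% in females.

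The second bin, chr3R:10090001-10100000, holds *mir-317*, the end of *lncRNA:CR45054* and the start of *lncRNA:CR43459*. It was covered to 18.8%, 43.0%, 44.0% and 20.5% in males at 48hr APF, to 0%, 0%, 0% and 12.5% at 1 day, and to 40.4%, 25.5%, 44.2% and 40.9% at 10–12 days. In females it was covered to 20.5%, 30.2%, 41.1% and 23.3%, then to 4.38%, 0%, 0% and 0%, then to 41.4%, 46.8% and 32.9%. The 1-day libraries did not overlap with the others in either sex. In *elav* neurons, males had 4.30%, 0%, 0% and 20.1% and females 0%, 8.65%, 0% and 2.0%.

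The bin before it, chr3R:10080001-10090000, was also a member, and the pair was the run with the largest drop. It overlaps *lncRNA:CR45054* and had no peak in any 1-day library of *fru P1* or *elav* neurons. At 48hr APF its mean was 31.4% in males and 24.4% in females, and at 10–12 days 18.5% and 25.1%. The bins on the outer sides of the pair were not members. The one that holds *Alp13* was covered to 37.8% in 1-day males and 32.7% in 1-day females. The one that holds *mir-277*, *mir-34* and part of *Fmr1*, the fly relative of the fragile X gene, was covered to 15.6% and 17.6%. The whole of *lncRNA:CR43459* (7596 bp) was covered to 34.6% ± 16.3 (SD, n = 4), 5.23% ± 10.5 (SD, n = 4) and 33.6% ± 15.7 (SD, n = 4) in males over the stages. In females it was covered to 35.9% ± 6.78 (SD, n = 4), 1.44% ± 2.88 (SD, n = 4) and 41.7% ± 7.89 (SD, n = 3).

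**Figure D3:**
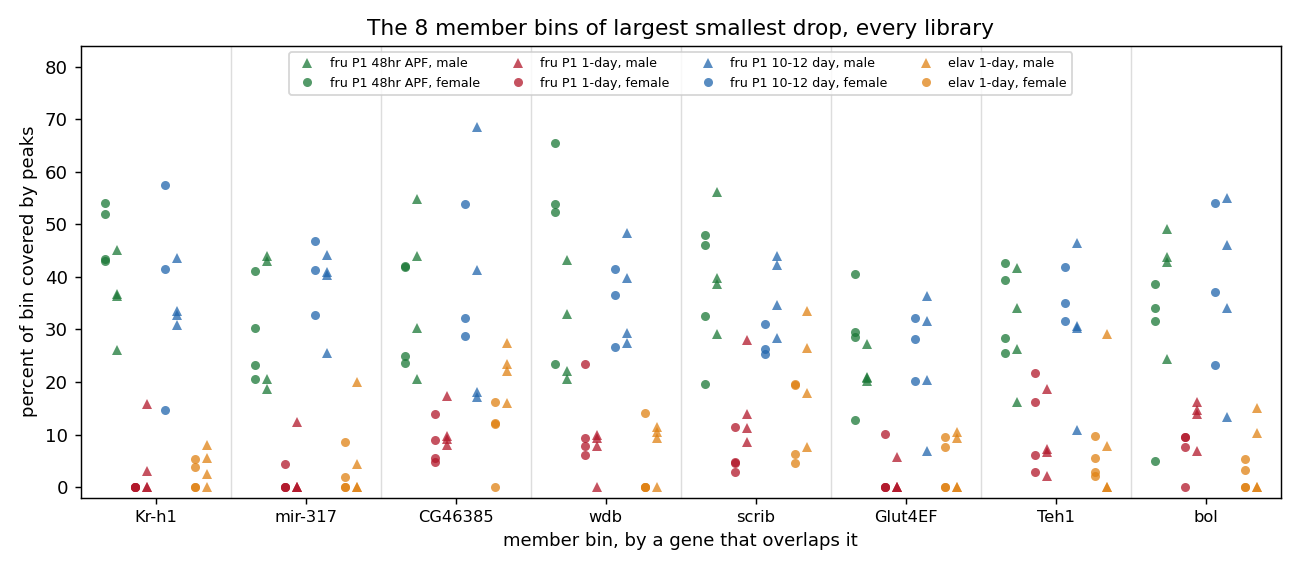
Percent of the bin covered by peaks (vertical axis) in every library, for the 8 member bins with the largest smallest drop, each labelled by a gene that overlaps it. Triangles are males and circles females, with green, red and blue for *fru P1* neurons at 48hr APF, 1 day and 10–12 days and orange for *elav* neurons at 1 day. Most red points lie below the green and blue points of the same bin, and orange points reach 33.6% at *scrib* and 27.4% at *CG46385*.

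In the order of their drop, the other bins of the 8 overlap *CG46385*, *wdb*, *plum* with *scrib*, *Glut4EF* with *CG46467*, *Teh1* and *bol*. *CG46385* has no role given here, and its bin, chr2R:7750001-7760000, had means of 37.4%, 11.0% and 36.3% in males and 33.1%, 8.26% and 38.3% in females over the stages. *wdb* encodes a regulatory subunit of protein phosphatase 2A. Its bin, chr3R:27570001-27580000, is wholly intronic and had means of 29.7%, 6.80% and 36.2% in males and 48.8%, 11.7% and 34.9% in females.

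*plum* encodes an immunoglobulin-family membrane protein of neuronal remodelling and *scrib* a scaffold protein of cell polarity, and the starts of both lie in one bin, chr3R:26530001-26540000. Over the stages it had means of 40.9%, 15.4% and 37.3% in males and 36.6%, 5.87% and 27.6% in females. In 1-day males the libraries ran from 8.62% to 28.1% and in 10–12 day males from 28.5% to 44.0%, with no overlap. Over the whole gene, neither had its lowest mean at 1 day in either sex. *plum* had 27.1%, 28.9% and 23.7% in males and 25.2%, 24.9% and 22.5% in females. *scrib* had 23.8%, 24.6% and 24.9% in males and 23.2%, 26.4% and 17.1% in females. By contrast, *bol* met the rule over its whole body. *Glut4EF*, which encodes a DNA-binding protein named Glut4 enhancer factor, had 22.3%, 1.43% and 23.8% in males and 27.8%, 2.51% and 26.8% in females over chr3R:9950001-9960000. *Teh1*, which encodes an accessory subunit of the voltage-gated sodium channel, had 29.6%, 8.71% and 29.5% in males and 34.0%, 11.7% and 36.2% in females over chr3R:9860001-9870000. *bol* encodes an RNA-binding protein of male meiosis, and its bin, chr3L:9120001-9130000, had 40.0%, 12.9% and 37.1% in males and 27.3%, 6.67% and 38.2% in females. The female libraries at *bol* overlapped between stages, since those of 48hr APF ran from 4.90% to 38.6% and those of 1 day from 0% to 9.59%.

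Beyond the pair at *mir-317*, the runs with the next largest drops were chr3R:7070001-7090000 and chr2R:9540001-9560000. All 8 runs were equally long, so the 3 named were taken by their drop. The first of these overlaps *Ref1*, which encodes an mRNA export adaptor, *alphaTub84B*, which encodes an alpha-tubulin, *Ufl1*, *Dpck*, *Tailor*, *CG1965* and *CG1943*. The second overlaps the end of *brp*, which encodes the scaffold of the presynaptic active zone, with *mir-14*, *CG1888* and the odorant receptor gene *Or45b*. The remaining runs lie at *Cam*, the calmodulin gene, at *Kr-h1* with *Kr-h2*, at *chinmo*, a regulator of neuronal temporal identity, at *tara*, and at *Task6* with *Lkb1*.

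Near the threshold, members and other bins were close in value. The 3 members of smallest drop lay at *Gprk2* (10.0 points), at *Task6*, *Lkb1* and *omd* (10.0 points) and at *tara* (10.1 points). The 3 bins just outside lay at *rumi* (9.97 points), *sky* (9.97 points) and *shn* (9.94 points). At *rumi* the means in males were 18.0%, 8.06% and 22.0% over the stages, against 18.4%, 1.14% and 21.0% at *tara*. The number of members also depended on which peaks were counted. With peaks of p at or under 0.05, 46 bins met the rule, 34 of them members, and with peaks of at least 1.5-fold enrichment 12 did, 7 of them members.

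Since the rule used all *fru P1* libraries, bins were also chosen in one sex and measured in the other. The rule was met in males alone by 411 bins (3.77%) and in females alone by 453 bins (4.16%). In females, the bins chosen in males were covered to 27.8% ± 1.67 (SD, n = 4) at 48hr APF, 15.3% ± 0.866 (SD, n = 4) at 1 day and 23.3% ± 5.16 (SD, n = 3) at 10–12 days. In males, the bins chosen in females were covered to 26.7% ± 1.62 (SD, n = 4), 16.6% ± 2.54 (SD, n = 4) and 26.5% ± 4.19 (SD, n = 4). Every 1-day library was below every library of the other stages in both sexes.

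The mean of all bins was then taken away in each library. In females, the chosen bins moved by -19.6 points between 48hr APF and 1 day and by -16.7 points against 10–12 days. In males they moved by -17.6 and -17.3 points. Each of the 4 differences had p = 0.0286 (adjusted p = 0.0286 over the 4) in two-sided exact permutation tests over libraries, the smallest p that 4 against 4 or 3 against 4 libraries can give. With coverage as it stands, the differences were -12.5 and -8.01 points in females and -10.1 and -9.91 points in males, with the same p. Bin by bin, 291 of the 411 (70.8%) were lower at 1 day than at both other stages in the sex that did not choose them, against 18.4% of all bins, and 336 of the 453 (74.2%) against 17.2%. Of the bins chosen in males, 32.4% met the full rule in females, and of those chosen in females 29.4% met it in males.

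**Figure D4:**
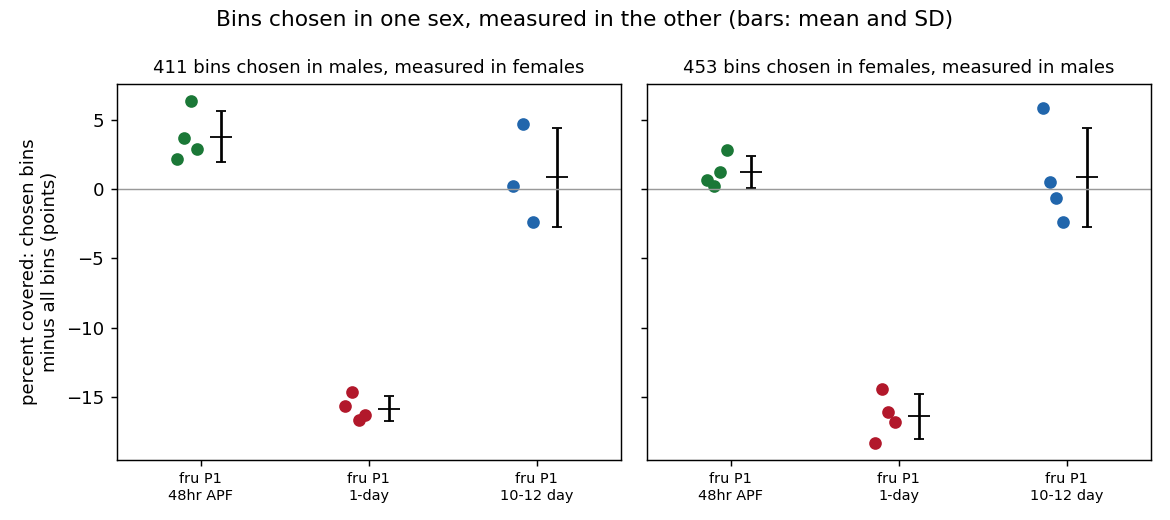
Percent covered in the chosen bins minus that in all bins (vertical axis, percentage points), 1 point per library, by stage. Left, 411 bins chosen in males and measured in females, and right, 453 bins chosen in females and measured in males, with black bars for the mean and SD. The 1-day libraries lie between -16.7 and -14.7 points in females and between -18.3 and -14.4 points in males, and those of the other stages lie around 0.

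Bins were also chosen with one replicate number left out of every condition and then measured in the libraries left out. The left-out libraries were called against the same pooled input as the other libraries of their condition. They are therefore not wholly independent of the choice, and the part of the shared input was not tested. The choice gave 90, 141, 115 and 195 bins. In the left-out libraries, 48hr APF exceeded 1 day by 11.9 to 17.2 points in males and by 12.2 to 21.0 points in females. Coverage at 10–12 days exceeded that at 1 day by 7.08 to 22.2 points in males and by 4.83 to 21.0 points in females. All 15 differences were positive. In the same order, their means were 15.0, 16.6, 13.2 and 13.3 points, smaller than the 19.7, 20.6, 18.6 and 19.1 points of the members in the libraries that chose them.

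In each *fru P1* condition, the library with the highest mean coverage of genes was singled out, so each condition has 1 by the choice. Only those of 48hr APF were flagged as far from the rest of their group. The 10–12 day females, with 3 libraries, were not checked for this. Over protein-coding genes of 2 kb or more, the highest library had 31.2%, against at most 20.6% in the others, in males at 48hr APF, and 33.5% against 22.5% in females. At 1 day it was 40.3% against 31.4% in males and 39.9% against 30.9% in females, and at 10–12 days 37.6% against 28.1% and 31.7% against 26.9%. Without these 6 libraries, 119 bins met the rule, and 82 of the 133 members (61.7%) were among them. The tests across sexes then gave differences of -18.0 and -12.1 points in females and -17.6 and -16.5 points in males, each with an exact permutation p of 0.1, the smallest that 3 libraries against 3 or 2 allow. The 10–12 day male replicate 1 had the fewest tags, 2119672, and the highest member coverage of its group, and without it 115 bins met the rule, 108 of them members.

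The *elav* libraries address whether the same bins were thinly covered in neurons in general at this age. In *elav* males the member bins were covered to 10.3%, 5.36%, 6.38% and 11.6%, and in *elav* females to 4.27%, 9.94%, 6.83% and 6.56%. The means of 8.41% ± 3.02 (SD, n = 4) and 6.90% ± 2.33 (SD, n = 4) were below the 26.2% ± 1.37 (SD, n = 4) and 24.1% ± 1.75 (SD, n = 4) of all bins and close to the 10.7% and 8.79% of 1-day *fru P1* neurons. Cell type, depth and kind of input differ together between *elav* and *fru P1* libraries and cannot be told apart, and the rule used the 1-day *fru P1* values, so no test of this difference is given. *elav* libraries had 2295291 to 3012794 tags. *elav* male replicate 3, whose peaks were called with a fragment length of 140 bp rather than 200 bp, had 6.38%, and without it the male mean was 9.08%.

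Most members were low in *elav* neurons. Their *elav* coverage (mean of both sexes) had a median of 5.68% and ran from 0% to 33.8%, against a median of 21.3% over all bins. It was below 10% in 97 members (72.9%), against 29.5% of all bins. It was at least 10 points below *fru P1* neurons at 48hr APF and at 10–12 days, in both sexes, in 107 members (80.5%) and in 9.71% of all bins, but the rule chose members for high values at these stages, so nothing is read from this difference. *elav* neurons had a peak in all 8 libraries in 19 members (14.3%), against 62.2% of all bins, and in none of them in 3 members (2.26%), against 6.19%.

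A low *elav* level was common to bins that were low in 1-day *fru P1* neurons. Of the members, 117 had at most 20% in 1-day *fru P1* neurons of both sexes, and their *elav* means were 7.64% in males and 5.83% in females. The 2850 other bins with at most 20% had *elav* means of 7.30% and 6.01%. These bins differed from the members at the other stages, with 9.31% and 9.17% at 48hr APF, against 28.5% and 27.5% in the members. Against 1-day *fru P1* neurons, *elav* coverage was lower in both sexes in 70 members (52.6%; 58.7% of all bins) and higher in both in 22 (16.5%; 18.1% of all bins), shares near those of all bins.

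**Figure D5:**
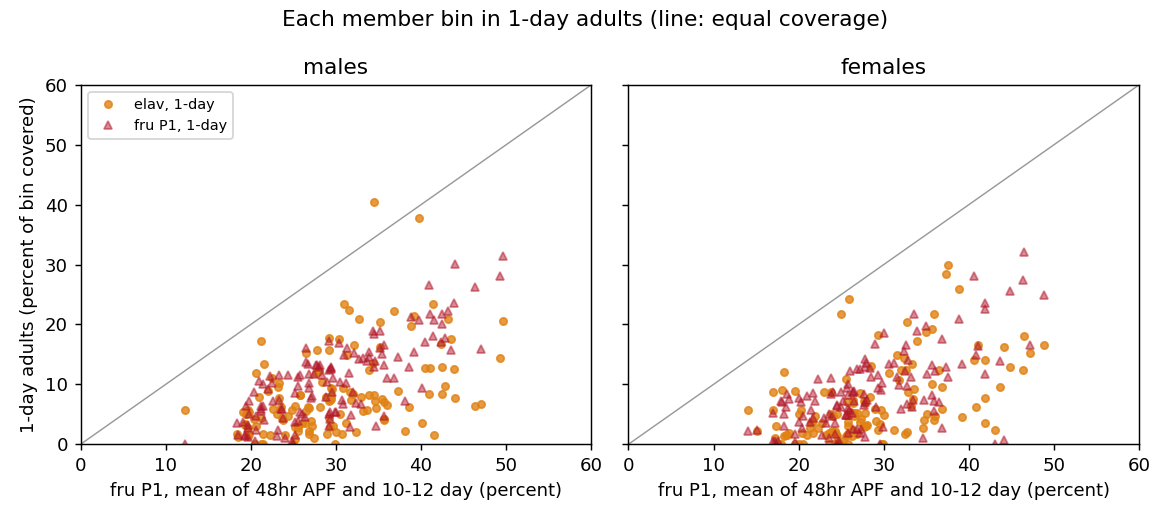
Percent of each member bin covered in 1-day adults (vertical axis) against the mean of 48hr APF and 10–12 days in *fru P1* neurons (horizontal axis), for males (left) and females (right). Orange circles are *elav* neurons, red triangles 1-day *fru P1* neurons, and the grey line marks equal coverage. Orange and red points share the lower part of the plot, and 1 orange point, the *mbl* bin in males at 40.4%, lies above the line.

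The 3 members of lowest *elav* coverage had no peak in any *elav* library. They lie at the end of *brp* with *CG1888* (chr2R:9540001-9550000), at *14-3-3zeta* with *Pfk*, a glycolytic enzyme gene (chr2R:10100001-10110000), and at *lncRNA:CR45054*. The 3 of highest *elav* coverage lie at *Not3*, which encodes a subunit of the CCR4-NOT deadenylase (chr2R:5660001-5670000), at *mbl*, which encodes the splicing factor muscleblind (chr2R:17270001-17280000), and between genes (chr3R:13800001-13810000). At *Not3*, the *elav* libraries had 29.3%, 37.6%, 48.0% and 36.0% in males and 44.0%, 21.0%, 23.1% and 31.6% in females. This bin alone was above the mean of all bins in *elav* neurons of both sexes (0.752% of members, 37.2% of all bins). At *mbl* they had 36.5%, 50.9%, 22.1% and 52.0% in males and 20.3%, 23.5%, 3.66% and 39.8% in females.

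The bins beside the members were low in *elav* neurons too. At 10 kb, *elav* males had 12.8% and 12.5% and females 9.95% and 11.3%, and at 20 kb males had 18.5% and 19.1% and females 16.0% and 17.7%. Against all bins, those at 20 kb stood at -7.71 and -7.14 points in males and at -8.11 and -6.44 points in females. No test of the difference from 1-day *fru P1* neurons was made.

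Male and female *elav* neurons did not differ detectably in the members. With the mean of all bins taken away, the members stood at -17.8 ± 2.79 (SD, n = 4) points in males and -17.2 ± 2.50 (SD, n = 4) points in females, a difference of -0.615 points (exact permutation test, p = 0.714). With coverage as it stands, the difference was 1.51 points (exact permutation test, p = 0.429). Bin by bin, limma was fitted to the 10033 bins with a peak in at least 2 of the 8 libraries. At an adjusted p of 0.05 (Benjamini-Hochberg), limma called 0 bins (0%), and 0 of the 128 members tested. The smallest adjusted p was 0.966. At an unadjusted p of 0.05, limma called 495 bins (4.93%) and 6 of 128 members (4.69%).

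The members lay in genes more than the average bin did. A median of 96.8% of a member was within a gene, against 91.6% of all bins, and 92 members (69.2%) were over 90% genic, against 52.1% of all bins. On average, 63.1% of a member was intron, 24.5% exon and 12.4% intergenic, against 41.7%, 26.5% and 31.7%. Bins that were mostly intergenic made up 6.02% of members and 30.1% of all bins. The median longest gene that a member touches was 20.7 kb, against 15.0 kb, but the mean was 32.7 kb, against 74.5 kb, and 18.0% of members touched a gene of 50 kb or more, against 23.4% of all bins. Further, 38 members (28.6%) held no transcription start site, against 44.4%.

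The coverage fell at 1 day in exons, introns and intergenic DNA of the members alike. The rule required a fall over the whole bin, so only its spread over the 3 classes is described. In males, introns of members were covered to 33.2% ± 3.32 (SD, n = 4), 11.4% ± 2.17 (SD, n = 4) and 29.1% ± 5.04 (SD, n = 4) over the stages. Exons had 25.5% ± 4.38 (SD, n = 4), 10.4% ± 3.20 (SD, n = 4) and 31.3% ± 7.26 (SD, n = 4). Intergenic bases had 25.8% ± 5.05 (SD, n = 4), 7.58% ± 1.52 (SD, n = 4) and 26.1% ± 4.95 (SD, n = 4). In *elav* males the 3 classes had 9.07%, 6.52% and 8.76%, against 24.7%, 22.2% and 31.6% in all bins.

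Annotated transposons took 1.40% of member bases, against 5.79% of all bins, and 13 members (9.77%) held one, against 21.8%. The member with most had 56.5% of its bases in them. No member lay within 1 Mb of the centromere end of an arm, where 400 bins (3.67%) lie, and the nearest was 1.26 Mb away, on 2L. The arms 2L, 2R, 3L and 3R held 30, 40, 28 and 35 members, from 0.996% of bins on 3L to 1.58% on 2R. The median GC content was 41.5%, against 42.1%. Bins without a peak at 48hr APF, 10.2% of all bins in males and 11.2% in females, could not be members. The paper kept only reads that aligned uniquely. The part of both in the contrasts of genes and transposons with all bins was not tested.

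In all, 215 of 14865 genes (1.45%) had their start in a member bin and 298 overlapped one. Of protein-coding genes 168 of 11669 did (1.44%), of other noncoding RNA genes 34 of 2380 (1.43%), of tRNA genes 10 of 266 (3.76%) and of pseudogenes 0 of 187. The 10 tRNA genes lie in 5 member bins, so they are not independent of each other, and 0 of the 10 were themselves under a peak at 48hr APF in any library.

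Lists of genes that bear on neurons, hormones and differentiation were then counted. Of 31 lists, 18 with 565 genes had no start in a member. Among them were cuticle proteins (117 genes), histone genes (114), gustatory receptors (54), ionotropic receptors (55), homeotic genes (8), Dpr and DIP cell surface genes (26), other axon guidance genes (17) and potassium channels (11). Over all genes only 1.45% had their start in a member, so a small list can hold none by its size alone. Nothing is read from these lists. Nicotinic receptor subunits had 1 of 8 (*nAChRalpha6*), synaptic release genes 1 of 10 (*Rbp*), muscle genes 1 of 15 (*Mef2*) and glial genes 1 of 8 (*wrapper*). Odorant receptors had 1 of 53 (*Or45b*), pickpocket channels 1 of 26 (*ppk27*), cytochrome P450 genes 1 of 72 (*Cyp4e3*) and sex hierarchy genes 1 of 6 (*her*). The shares rest on single genes and are read no further. Over its own body, *Mef2*, which encodes a transcription factor of muscle, had 33.2%, 23.8% and 25.6% in males and 27.5%, 16.8% and 21.0% in females over the stages. *ppk27* had 45.2%, 2.17% and 20.2% in males and 53.6%, 0% and 0% in females. *her* had 24.7%, 11.3% and 38.4% in males and 0%, 14.5% and 13.1% in females. *Or45b*, *Cyp4e3* and *wrapper* lie mostly outside the member bin that holds their start, so their values describe mostly the neighbouring bin. *Or45b* had its highest mean at 1 day, with 14.4%, 51.8% and 12.7% in males and 6.34%, 28.3% and 0% in females. In 1-day males its libraries ran from 0% to 91.9%. In females, *Cyp4e3* and *wrapper* also had their highest mean at 1 day, with 34.0%, 58.1% and 16.5% and with 19.3%, 46.5% and 11.7%, while in males they had 68.7%, 15.5% and 48.2% and 26.3%, 20.1% and 31.3%.

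Having its start in a member did not mean that a whole gene followed the members. *nAChRalpha6*, a gene of 92934 bp for an acetylcholine receptor subunit, was covered over its whole body to 42.3% ± 7.48 (SD, n = 4), 40.6% ± 3.64 (SD, n = 4) and 32.2% ± 6.44 (SD, n = 4) in males over the stages. *Rbp*, which encodes the RIM-binding protein of the active zone, had 22.2% ± 10.5 (SD, n = 4), 25.4% ± 4.88 (SD, n = 4) and 21.6% ± 5.53 (SD, n = 4). *fru* and *dsx*, the sex determination genes that direct these neurons, had no part in a member, with 41.6%, 48.4% and 31.4% and with 31.8%, 49.4% and 35.6% in males.

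None of 11 ecdysone response genes had its start in a member, but 3 overlapped one, namely *EcR*, *Eip75B* and *ftz-f1*. These are long genes of 81215, 113744 and 50703 bp, and 22 of 240 genes of 50 kb or more (9.17%) overlapped a member. *EcR* encodes the ecdysone receptor, and over its 81215 bp it was covered to 22.7% ± 3.31 (SD, n = 4), 10.5% ± 1.73 (SD, n = 4) and 19.1% ± 1.55 (SD, n = 4) in males. In females it had 17.5% ± 2.89 (SD, n = 4), 7.16% ± 1.29 (SD, n = 4) and 15.5% ± 7.75 (SD, n = 3), and in *elav* neurons 5.65% and 2.79%. *ftz-f1*, a nuclear receptor gene of the prepupal response, had 20.2%, 6.40% and 12.2% in males and 15.1%, 4.29% and 15.3% in females, and *Eip75B* had 29.1%, 22.1% and 21.3% and 24.6%, 16.9% and 22.2%. None of the 3 met the rule over its whole body.

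The rule was also put to gene bodies. Of 6038 protein-coding genes of 2 kb or more, 129 (2.14%) met it over the whole body, and 38 of these overlapped a member bin. Their means were 28.7% ± 3.47 (SD, n = 4), 8.94% ± 2.53 (SD, n = 4) and 31.3% ± 3.46 (SD, n = 4) in males over the stages. Over all 6038 genes the means were 23.1%, 32.2% and 29.6%. In *elav* neurons the 129 genes had 5.79% ± 2.67 (SD, n = 4) in males and 4.95% ± 2.46 (SD, n = 4) in females, against 21.6% and 20.4% over all. Without single libraries, 108 to 187 genes met the rule, with 187 without the 1-day male replicate 3.

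The 12 of largest drop were *Cyt-c-d*, *UQCR-C1*, *IntS11*, *Ref1*, *can*, *Ktl*, *TAF1C-like*, *Uba1*, *CG12099*, *CtIP*, *bsk* and *Clamp*. *Cyt-c-d* encodes a cytochrome c, *UQCR-C1* a subunit of respiratory complex III, *IntS11* the endonuclease of the Integrator complex and *Uba1* the ubiquitin-activating enzyme. *bsk* encodes the Jun kinase, *CtIP* a DNA end resection factor, *can* a testis TAF and *Clamp* a zinc finger protein that binds GA repeats. In females, *Cyt-c-d* (chr2L:16715891-16719635) was covered to 21.2%, 37.3%, 60.2% and 53.4% at 48hr APF, to 0% in all 4 libraries at 1 day, and to 59.4%, 5.34% and 75.3% at 10–12 days. In males it was covered to 61.6%, 41.5%, 33.6% and 53.5%, then to 0% in all 4, then to 7.37%, 17.5%, 63.2% and 26.3%. No *elav* library had a peak in it. *Ref1*, *bsk*, *UQCR-C1*, *IntS11* and *CG12099* had no peak in any *elav* library either. In each of the 12 but *Cyt-c-d*, 1-day *fru P1* libraries overlapped with those of another stage in at least 1 sex. At *bsk*, male replicate 4 was at 0% at 48hr APF and at 10–12 days.

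Of 77 cytoplasmic ribosomal protein genes, 9 (11.7%) met the rule over the gene body. Of protein-coding genes under 2 kb 2.13% met it, and of those of 2 kb or more 2.14%. The 9 are not all under 2 kb, since *RpS7* has 2574 bp. Of the 77, 4, not all of them among the 9, had their start in a member. Of those 4, *RpL21* met the rule over its body, with 25.0%, 0% and 19.2% in males and 11.1%, 0% and 53.6% in females. The gene has 765 bp, so 1 peak can cover it wholly. In 48hr APF males, replicate 4 had 100% and the other replicates 0%. Whether the share of 11.7% rests on single libraries was not tested. *RpL8* and *RpL14* did not. *RpL8* was covered to 32.8%, 0% and 64.5% in males over the stages and to 8.999%, 16.0% and 48.0% in females, and *RpL14* to 14.3%, 2.61% and 54.1% and to 48.4%, 11.4% and 5.36%. Of 200 microRNA genes, 11 (5.50%) met the rule over the hairpin, against 2.62% of genes under 200 bp, and 4 lie in members, *mir-9378*, *mir-2497*, *mir-14* and *mir-317*. A hairpin is much shorter than a peak, so it is mostly covered wholly or not at all, and *mir-317* itself had a mean of 0% at 48hr APF and at 1 day and of 25.0% and 25.4% at 10–12 days.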

How the data were processed

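H3K9me3 ChIP-seq peak lists of 23 *fru P1* and 8 *elav* libraries were used. Trimming with Trimmomatic, alignment with Bowtie2 2.2.5, handling with SAMtools 1.2 and a broad peak call per library with MACS2 were done by the authors. MACS2 was version 2.1.1.20160309 per the file headers and 2.1.0 per the submitters' processing notes. Per the file headers, 1 tag per position was kept, *fru P1* libraries were called against pooled inputs and *elav* libraries against the input of the same replicate. The deposited lists give for each peak the pileup signal, the −log10 p-value and q-value and the fold enrichment over input. The q-value was not used. Depth ran from 2119672 to 6306013 tags in *fru P1* libraries and from 2295291 to 3012794 in *elav* libraries. Coverage is a share of bases, not of reads, so no counting interval is given.

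The percent of each full 10 kb bin (dm6, RefSeq assembly) under peaks was computed per library with Python 3.11.15, numpy 2.4.6 and pandas 2.3.3, and figures were drawn with matplotlib 3.10.9. Genes came from the Ensembl annotation of the same assembly, without transposon entries. Groups and replicate numbers came from the sample labels. Differences between libraries were tested by exact permutation (two-sided) and bins with limma 3.58.1 (R 4.3.3, Benjamini-Hochberg). The labels do not say how replicates were separated, so p-values measure only the spread between these libraries. The computations were tested on simulated data.

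The members and gene lists were chosen with earlier results of these data known. Genes are named where they overlap the 8 bins of largest drop, the 3 runs, the 3 highest and the 3 lowest *elav* bins or the bins at the threshold, where they are among the 12 gene bodies of largest drop, or where they belong to a list. In one list, 1 item is not reported here. Runs of equal length were ranked by their drop. *Kr-h2*, *chinmo*, *Cam*, *tara*, *Task6*, *Lkb1*, *EcR*, *Eip75B*, *ftz-f1*, *fru*, *dsx* and the neighbours of *mir-317* were named after their values were seen. The alternatives tried were other thresholds, bin sizes and starts, medians, stricter peaks, scaling, a replicate block and leaving out libraries.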

Additional observations from a re-analysis of the deposited data

Results flagged for a closer look

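In 3 of 30 groups of values tested for a single library far from the rest, such a library was found, where chance gives about 1 in 20. At 48hr APF, female replicate 1 had the highest mean coverage of all bins in its group, 26.6%, and the highest mean coverage of protein-coding genes of 2 kb or more, 33.5%. Male replicate 2 of the same stage had 31.2% over these genes. Both are among the 6 libraries that were left out together in the report, and the members' own means in them were 30.5% and 31.4%, within the range of the other 48hr APF libraries.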

How the results depend on the processing

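The number of bins that met the rule was 427 at 5 points, 35 at 15 points and 10 at 20 points. It was 390 with bins of 5 kb and 39 with bins of 20 kb. With peaks of p at or under 0.05 it was 46, 34 of them members, and with peaks of at least 1.5-fold enrichment 12, 7 of them members. With the 10000 peaks of smallest p it was 25, 9 of them members. With medians over libraries it was 133, 95 of them members. With each library scaled to the mean of all *fru P1* libraries it was 390, all 133 members among them, and 450 bins met the reverse. Leaving out single libraries gave 113 to 153 bins, of which 106 to 130 were members. The *elav* level of the members was 4.84% in males and 4.38% in females with peaks of p at or under 0.05, and 2.66% and 2.24% with the 10000 peaks of smallest p. Leaving out single *elav* libraries gave 7.33% to 9.43% in males and 5.89% to 7.78% in females.

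The tests across sexes kept their direction under every alternative run. Without single libraries, the bins chosen in males differed in females by -20.2 to -18.8 points against 48hr APF and by -18.3 to -14.8 points against 10–12 days, where the exact permutation p rose to between 0.0667 and 0.1. The bins chosen in females differed in males by -18.3 to -17.0 and by -18.3 to -15.6 points. Without the 6 libraries of high gene-body coverage, an alternative chosen after seeing the data, the differences were -18.0, -12.1, -17.6 and -16.5 points (exact permutation p = 0.1). With a replicate block they were -19.6 (p = 0.125), -17.1 (p = 0.25), -17.6 (p = 0.125) and -17.3 points (p = 0.125) in exact sign-flip permutation tests, the smallest p that 4 or 3 pairs allow. Correlations of same-numbered libraries ran from -0.188 to 0.250, so the numbers were not taken to pair libraries, and the file names of the 1-day females carry other numbers than their titles. The male minus female difference in *elav* neurons was 1.51 points with coverage as it stands, and -1.85 to 0.593 points without single libraries, positive without male replicate 2 (0.404) and without female replicate 2 (0.593). With all bins fitted, limma called 1 bin, which is no member. The cause of these changes was not tested. Peak lists hold no reads, so bins without a peak may hold signal under the authors' limit.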
